A study of Mus musculus with 8 samples.

Results

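The 7 matrix metalloproteinase (MMP) genes *Mmp2*, *Mmp8*, *Mmp9*, *Mmp12*, *Mmp13*, *Mmp14* and *Mmp19* and the 3 tissue inhibitor of metalloproteinases (TIMP) genes *Timp1*, *Timp2* and *Timp3* were followed through an RNA-seq experiment on cultured mouse osteoclasts. They were taken by symbol through their Ensembl identifiers, and all 10 were found among the 46517 genes of the table. The libraries came from 4 mice that lack *Elmo1* throughout the body (*Elmo1*-/-) and from 4 mice with 1 intact copy (*Elmo1*+/-), which served as controls, with 1 library per mouse. The control libraries are titled wild-type but carry the genotype label *Elmo1*+/-, so that no library with both copies was compared. Femoral marrow of mice aged 6 to 8 weeks was held for 16 h, and the cells in suspension then grew for 7 days with GST-RANKL at 50 ng/ml and 10% medium conditioned by L929 cells, which supplies macrophage-colony stimulating factor. That is the order in the labels, whereas the study's methods for its osteoclast cultures add a step before RANKL, in which cells that had attached in the conditioned medium were collected and plated again. The question was whether the loss of ELMO1, an adaptor protein that acts with DOCK proteins to activate the small GTPase RAC, goes with a change in the transcripts of the secreted and membrane enzymes that degrade matrix.

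MMPs are zinc-dependent proteases that are made as inactive precursors and that cut collagen, gelatin, elastin and other proteins outside the cell once their propeptide is removed. TIMPs bind their active sites and block them, and TIMP2 also bridges proMMP2 to MMP14 at the cell surface, where proMMP2 is activated. Osteoclasts are known for a strong expression of MMP9 and MMP14, while cathepsin K is their chief collagen-degrading enzyme. Transcript levels say nothing of the amount of active enzyme.

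Each library held between 20905502 and 40846651 reads on genes. *Elmo1* lay at 274.3 to 316.4 normalized counts (reads divided by 1 size factor per library) in *Elmo1*-/- and at 1423 to 1769 in *Elmo1*+/-, a log2 difference of -2.44 (SE 0.09, limma, adjusted p = 8.4e-06), and each library matched its genotype label. The libraries numbered 1 and 2 of both genotypes stood apart from those numbered 3 and 4 along the first principal component, which held 62.3% of the variance, and *Elmo1*-/- 1 lay farthest out, at -52.3 against -26.3 to 31.9 for the others. These 2 sets are named by library number here, since 2 mice per genotype were sequenced in each of 2 experiments but the labels do not say which. The summed level of 12 osteoclast markers was 191490 to 363417 normalized counts in libraries 1 and 2 and 621203 to 697999 in libraries 3 and 4, and all 12 markers were higher in the latter without overlap. The defining osteoclast genes were abundant in all 8 libraries, as for *Ctsk* (69531 to 328164) and *Acp5* (69893 to 253274), and so were the macrophage genes *Adgre1* (76358 to 108777) and *Csf1r* (37886 to 53429). In bulk RNA of such cultures, fewer cells of a type and less RNA per cell cannot be told apart.

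The sequences before the transcription starts give the members' regulatory setting and are shown for the 2 neighbouring genes *Mmp13* and *Mmp12* and for the inhibitors *Timp1* and *Timp3*, the inhibitors with the widest spread among these libraries. RefSeq promoters on GRCm38.p6, each 300 bases from 250 before to 50 after the start, were on hand for 7 of the 10 genes, in 8 stretches. None was on hand for *Mmp2*, *Mmp9* and *Mmp19*, so these genes were not searched. The shown stretches have the following positions. They lie on the plus strand at chr9:7272264-7272563 (*Mmp13*), chr9:7344147-7344446 and chr9:7347124-7347423 (the upstream and downstream starts of *Mmp12*), chrX:20869916-20870215 (*Timp1*) and chr10:86300162-86300461 (*Timp3*). Capitals mark TGANTCA, a pattern that includes the letters bound by AP-1 factors such as FOS and JUN, and TATAAA, the letters of a TATA box, searched on both strands.
Mmp13 promoter: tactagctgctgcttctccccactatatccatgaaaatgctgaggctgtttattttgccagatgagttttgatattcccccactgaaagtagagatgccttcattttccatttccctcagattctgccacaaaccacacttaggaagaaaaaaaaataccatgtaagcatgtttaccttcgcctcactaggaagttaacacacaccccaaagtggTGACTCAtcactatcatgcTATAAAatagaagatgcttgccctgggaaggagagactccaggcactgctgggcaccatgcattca
Mmp12 promoter, upstream start: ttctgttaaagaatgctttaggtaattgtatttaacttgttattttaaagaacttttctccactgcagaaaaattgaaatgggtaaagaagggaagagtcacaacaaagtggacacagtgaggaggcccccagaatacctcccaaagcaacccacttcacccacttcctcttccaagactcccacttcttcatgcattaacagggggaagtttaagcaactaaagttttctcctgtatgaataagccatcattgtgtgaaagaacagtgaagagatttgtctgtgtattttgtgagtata
Mmp12 promoter, downstream start: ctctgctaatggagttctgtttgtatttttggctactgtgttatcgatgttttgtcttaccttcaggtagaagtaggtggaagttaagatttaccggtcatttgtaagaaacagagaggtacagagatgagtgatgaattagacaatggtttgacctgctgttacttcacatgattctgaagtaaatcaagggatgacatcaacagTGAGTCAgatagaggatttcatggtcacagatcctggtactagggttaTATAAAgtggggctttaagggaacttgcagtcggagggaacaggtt
Timp1 promoter: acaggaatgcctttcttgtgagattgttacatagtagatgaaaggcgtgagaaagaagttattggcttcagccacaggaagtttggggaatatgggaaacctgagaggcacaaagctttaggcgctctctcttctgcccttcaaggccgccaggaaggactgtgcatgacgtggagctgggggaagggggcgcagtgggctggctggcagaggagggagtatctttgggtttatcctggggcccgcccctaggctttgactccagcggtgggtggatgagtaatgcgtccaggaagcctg
Timp3 promoter: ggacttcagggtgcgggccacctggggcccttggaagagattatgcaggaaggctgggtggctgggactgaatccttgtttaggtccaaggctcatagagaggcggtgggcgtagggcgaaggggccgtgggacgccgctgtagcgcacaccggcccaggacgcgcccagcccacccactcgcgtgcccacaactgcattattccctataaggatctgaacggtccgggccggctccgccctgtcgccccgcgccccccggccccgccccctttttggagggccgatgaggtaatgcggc
The AP-1 letters occurred 35 bases before the start of *Mmp13* and 44 bases before the downstream start of *Mmp12*, as TGACTCA and TGAGTCA, and in none of the other 6 stretches. The MMP genes shown are thus those with these letters. The stretches of *Mmp8*, *Mmp14* and *Timp2*, which lack them, are not shown. Of 32851 mouse promoters of the same length, 7.81% held TGANTCA and 13.6% held TATAAA. The TATA letters stood 16 bases before the *Mmp13* start, 4 bases after the first base of the downstream *Mmp12* start and, in reverse, from 3 bases before the *Mmp8* start. The *Timp2* and *Timp3* stretches were rich in G and C, at 68.7% and 67.0% with 25 and 24 CG pairs, against a median of 52.7% and 7 pairs over all promoters, while the 2 *Mmp12* stretches held 38.7% and 40.7% with 0 and 3 pairs. A match of letters is a description and not a measured binding site.

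No MMP or TIMP gene passed the test between genotypes. In limma fitted to 14139 genes, with Benjamini-Hochberg adjustment, 0 of the 10 members had an adjusted p under 0.05, while 1 gene of all those tested, *Elmo1* itself, was called, a background of 0.00707%. The quasi-likelihood test of edgeR and the Wald test of DESeq2 on recovered reads also called 0 of the 10. At an unadjusted p under 0.05 there was 1 member, *Timp3*, of 10, beside 133 of all tested genes (0.941%). The fitted log2 difference (*Elmo1*-/- minus *Elmo1*+/-, on log2 of the normalized count + 1) was above 0 for 7 members and below 0 for 3, with a median of 0.07 against -0.0031 over all tested genes (8 and 2 in edgeR and DESeq2, where *Mmp9* changed sides). The adjusted p of each member was 0.9999 and none of the 10 had genotype groups without overlap, compared with 133 genes (0.941%) of all tested. The values below show how narrow or wide the range of differences is for each gene in this fit, which has no term for the library sets. With the sets as a term, the SE was smaller for each member. It was 0.10 in place of 0.23 for *Mmp9*, 0.20 in place of 0.31 for *Mmp12* and 0.30 in place of 0.45 for *Timp1*. For *Mmp14* it was 0.07 in place of 0.13, while for *Timp3* it changed little, from 0.25 to 0.24. With the replicate number as a block instead, the SE was 0.20 for *Timp3* and 0.07 for *Mmp14*. This SE was smaller than without a block for most members, but for *Mmp8* it was 0.17 in place of 0.14, and for *Mmp13* it stayed at 0.12.

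**Figure D1:**
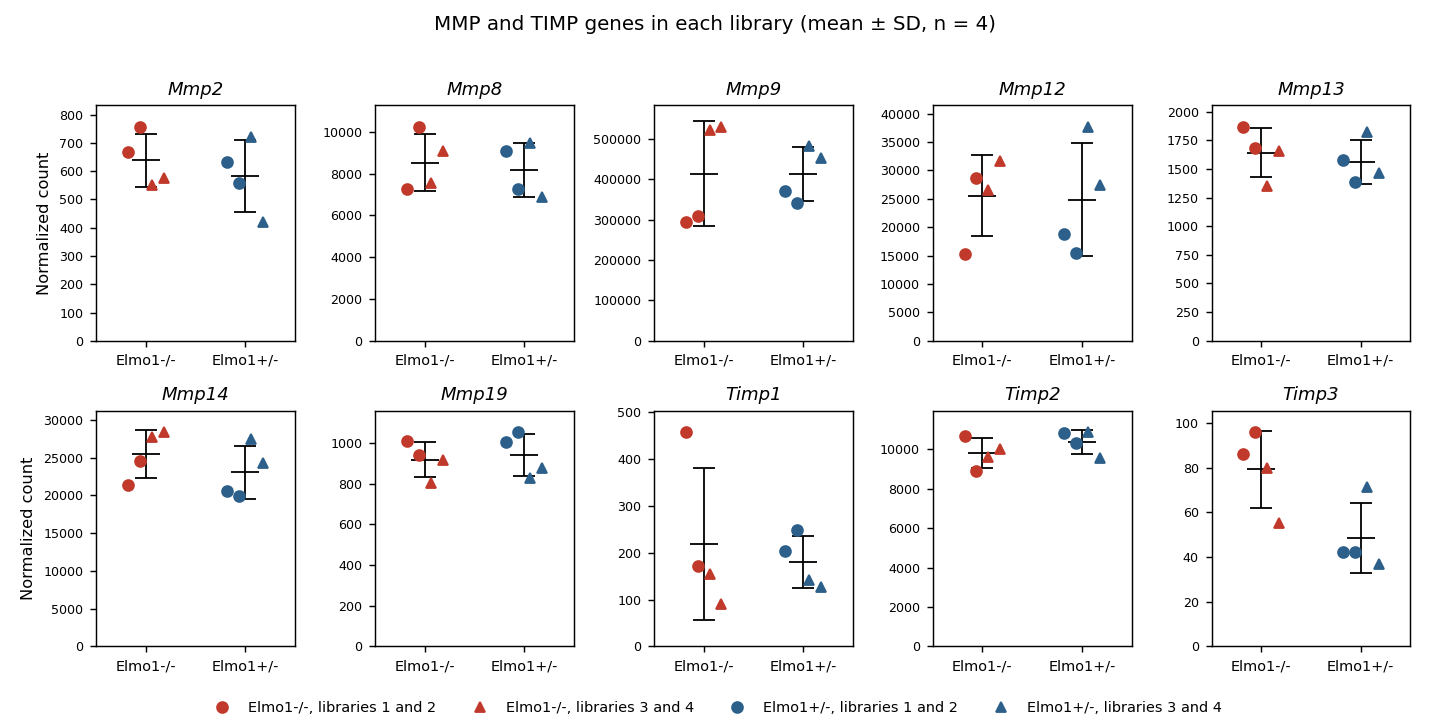
Normalized counts (vertical axes from 0, a separate scale per gene) of the 10 MMP and TIMP genes in the 4 *Elmo1*-/- (red) and 4 *Elmo1*+/- (blue) libraries, with libraries 1 and 2 as circles, libraries 3 and 4 as triangles, and mean ± SD in black. The genotypes overlap for each gene, *Mmp9* circles lie below its triangles, and the *Timp1* value of 456.0 in *Elmo1*-/- 1 lies above the other 7.

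*Mmp9*, which encodes gelatinase B, was by far the most abundant member. The gene (ENSMUSG00000017737) lies on the plus strand of GRCm38, the build of all gene positions given here, at chr2:164940780-164955850 and its main transcript has 13 exons. The 4 *Elmo1*-/- libraries held 293433, 309327, 522533 and 529620 normalized counts, and the 4 *Elmo1*+/- libraries held 369642, 341775, 482633 and 453298. Both genotypes thus had a lower pair and a higher pair, and the knockout values lay outside the control range on either side. The means were 413728 ± 129923 and 411837 ± 66883 (SD, n = 4 each), and the log2 difference was -0.03 (SE 0.23, 95% interval -0.56 to 0.49). *Mmp9* ranked between place 6 and place 13 of all genes by level per kb in each library and took 0.877% to 1.67% of all normalized counts. Within libraries 1 and 2 both knockouts were below both controls, and within libraries 3 and 4 both were above. Genotypes apart in opposite directions in the sets, in either order, occurred in 1 of the 10 members and 4.07% of all tested genes. The direction of the small *Mmp9* genotype difference turned with the method, with edgeR and DESeq2 on recovered reads giving 0.0051 and 0.0054.

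*Mmp2*, which encodes gelatinase A, was scarce by comparison. It lies at chr8:92827291-92853420 on the plus strand (ENSMUSG00000031740). *Elmo1*-/- libraries had 668.8, 756.7, 550.9 and 576.4 normalized counts, and *Elmo1*+/- libraries 631.8, 557.6, 721.8 and 418.8. The lowest and the second highest of the 8 values were both controls, and the groups overlapped. A log2 difference of 0.15 (SE 0.17) was fitted, with a 95% interval from -0.24 to 0.54.

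The collagenase genes had small fitted genotype differences. *Mmp8* (ENSMUSG00000005800, chr9:7558456-7568485, plus strand), which encodes the collagenase first known from neutrophil granules, had 7253, 10240, 7574 and 9071 normalized counts in *Elmo1*-/- and 9079, 7262, 9459 and 6895 in *Elmo1*+/-. Each group held a higher pair and a lower pair of values, and the log2 difference was 0.06 (SE 0.14, 95% interval -0.27 to 0.39). The summed level of 12 neutrophil markers was 10423 to 22791 in *Elmo1*-/- and 12338 to 21636 in *Elmo1*+/-, most of it *S100a8*. *Ly6g*, a defining neutrophil gene, lay at 1.20 to 10.4. Others were higher, with *S100a9* at 490.3 to 4039, *Ngp* at 164.5 to 964.0 and *Ltf* at 82.2 to 824.0 normalized counts. The remaining neutrophil markers did not exceed the 275.1 reached by *Mpo*. The part of such cells in the *Mmp8* level was not tested. *Mmp13* (ENSMUSG00000050578, chr9:7272514-7283331, plus strand), which encodes collagenase 3, had 1866, 1681, 1350 and 1659 normalized counts in the knockouts and 1573, 1384, 1821 and 1460 in the controls. The highest and the lowest value were both from knockouts. Its log2 difference was 0.07 (SE 0.12, 95% interval -0.20 to 0.34).

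*Mmp13* and *Mmp2* are also genes of osteoblasts and stromal cells. Of 8 osteoblast markers, *Dmp1* was at 0 in all 8 libraries, *Bglap*, *Ibsp* and *Tnfsf11* did not exceed 0.952, 0.920 and 1.84 normalized counts, and the sum was 61.5 to 94.9 in *Elmo1*-/- and 70.2 to 97.1 in *Elmo1*+/-, most of it *Runx2*. The sum of 12 stromal markers was 1647 to 2782 in *Elmo1*-/- and 1723 to 2738 in *Elmo1*+/-. It was led by *Acta2* (449.2 to 864.7) and *Dcn* (392.6 to 510.8), beside *Col1a1* (238.0 to 555.3) and *Col1a2* (219.9 to 560.6). The remaining stromal markers did not exceed the 233.3 of *Bgn*, and *Pdgfra* lay at 1.52 to 12.5. Thus some stromal transcripts were present in both genotypes in a range that overlapped that of *Mmp2* (418.8 to 756.7). Their part in the *Mmp2* and *Mmp13* values was not tested.

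*Mmp12*, which encodes the macrophage metalloelastase, varied more among mice than between genotypes. The gene (ENSMUSG00000049723) lies at chr9:7344381-7369499 on the plus strand. Its normalized counts were 15315, 28627, 26567 and 31661 in *Elmo1*-/- and 18801, 15460, 37659 and 27431 in *Elmo1*+/-. The 2 lowest values came from 1 library of each genotype and the highest from a control, and the coefficient of variation was 27.92% and 39.96%. The log2 difference was 0.07 (SE 0.31), with a 95% interval from -0.63 to 0.78, which leaves a change of up to 1.72-fold up or to 0.646 of the control level unresolved. *Mmp1b*, whose exons overlap it on the other strand, had at most 0.946 normalized counts.

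*Mmp14*, which encodes the membrane-anchored MT1-MMP, lies at chr14:54431612-54445364 on the plus strand (ENSMUSG00000000957). Knockout libraries had 21389, 24551, 27684 and 28342 normalized counts and control libraries 20595, 19878, 27495 and 24333. Each knockout value was above the control of the same number, while the groups overlapped. The log2 difference was 0.15 (SE 0.13, 95% interval -0.15 to 0.45). It was above 0 in each of the 20 alternative settings tried, from 0.08 to 0.24. The other filters, the replicate block and the set term cannot change this estimate in a balanced design, so the 20 settings are not separate checks. *Mmp19* (ENSMUSG00000025355, chr10:128790910-128800824, plus strand), an MMP with a broad range of basement membrane substrates, had 1008, 942.2, 804.6 and 918.7 normalized counts in *Elmo1*-/- and 1005, 1052, 829.9 and 875.6 in *Elmo1*+/-. These values spanned a narrow range, with coefficients of variation of 9.21% and 11.2%, and the log2 difference was -0.03 (SE 0.10, 95% interval -0.26 to 0.20). The exons of *Tmem198b* overlap those of *Mmp19* on the other strand, at 150.2 to 252.0 normalized counts, and whether counting used strand is not stated.

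Among the inhibitors, *Timp2* was the abundant and steady one. The gene (ENSMUSG00000017466) lies at chr11:118301069-118355740 on the minus strand. It had 10681, 8887, 9622 and 10019 normalized counts in *Elmo1*-/- and 10829, 10343, 10855 and 9539 in *Elmo1*+/-. The 2 highest values were from controls and the lowest from a knockout, but the groups overlapped. The log2 difference was -0.09 (SE 0.08, 95% interval -0.27 to 0.10), so that a change to less than 0.830 of the control level lies outside the interval. It was the narrowest interval of the 10 members in this fit. With the library sets as a term, the SE of *Mmp19* (0.067) and *Mmp14* (0.070) was smaller than that of *Timp2* (0.074).

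*Timp1*, which encodes a soluble inhibitor that binds proMMP9 as well as active MMPs, was the least certain member. The gene (ENSMUSG00000001131, chrX:20870166-20874735, plus strand) had 456.0, 172.4, 154.4 and 90.2 normalized counts in *Elmo1*-/- and 204.2, 247.2, 141.6 and 126.6 in *Elmo1*+/-. Both the highest and the lowest value came from knockouts. The log2 difference was 0.07 (SE 0.45, 95% interval -0.95 to 1.08), and without *Elmo1*-/- 1 it turned to -0.37. *Timp1* lies within *Syn1*, which is on the other strand with no shared exon and had 388.3 to 652.8 normalized counts, the highest of them also in *Elmo1*-/- 1.

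*Timp3*, which encodes the inhibitor that stays bound to the matrix and also blocks ADAM proteases, had the largest genotype difference of the 10 members but was scarce. The gene (ENSMUSG00000020044) lies at chr10:86300372-86349506 on the plus strand. Its normalized counts were 86.1, 95.8, 80.1 and 55.2 in *Elmo1*-/- and 42.3, 42.5, 71.6 and 37.1 in *Elmo1*+/-, from 39 to 96 reads per library. Of the 4 knockouts, 3 lay above all controls, and the fourth lay below *Elmo1*+/- 3. The means were 79.3 ± 17.3 and 48.4 ± 15.7 (SD, n = 4 each), and limma gave a log2 difference of 0.72 (SE 0.25, 95% interval 0.16 to 1.28), or 1.65-fold, with an adjusted p of 0.9999. It stood at place 26 of 14139 genes by p. The exact two-sided permutation test over the 70 arrangements of 4 and 4 mice gave p = 0.0571, where the smallest that it can give is 0.0286. *Timp3* was higher in the knockout of all 4 same-numbered pairs, by 0.16 to 1.15 on the log2 scale. An exact sign-flip test over these pairs gave p = 0.125, the smallest that 4 pairs allow, so it could not fall under 0.05. *Mmp14* gave the same p in this test. The adjusted p of *Timp3* (limma, edgeR or DESeq2) was 0.937 or higher in each of the 20 alternative settings. Its log2 difference was above 0 in all of them (0.67 without *Elmo1*-/- 1), although some of them cannot change it. Within libraries 1 and 2 it was 1.08 (both knockouts at 86.1 or more, both controls at 42.5 or less), and within libraries 3 and 4 it was 0.36, where the 2 genotypes overlapped. *Timp3* is among the genes that the study itself chose on these libraries, so its direction here is not independent evidence. *Syn3*, whose exons overlap those of *Timp3* on the other strand, did not exceed 1.5 normalized counts.

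**Figure D2:**
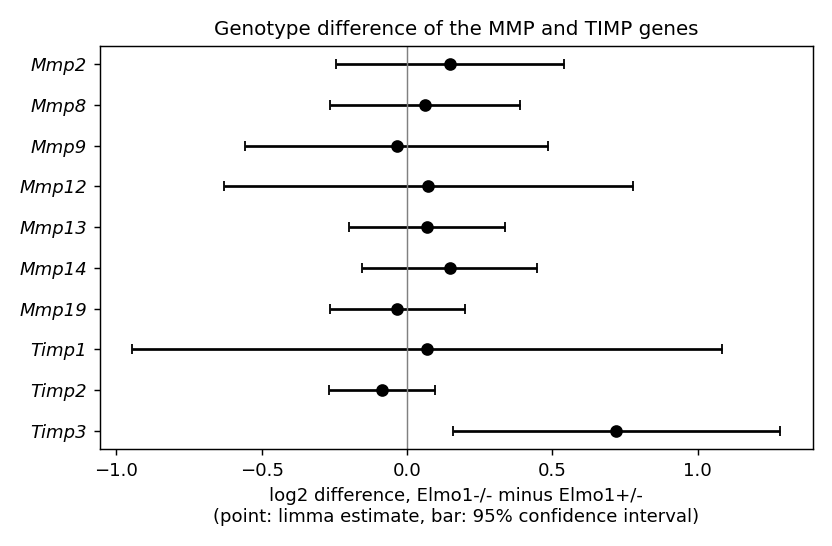
Fitted log2 difference between *Elmo1*-/- and *Elmo1*+/- for each MMP and TIMP gene (horizontal axis; points are limma estimates from 4 and 4 mice, bars are 95% confidence intervals, the grey line marks no difference). The interval of *Timp3*, 0.16 to 1.28, is the one that does not reach 0, although its adjusted p is 0.9999, and the intervals of *Timp1* and *Mmp12* are the widest.

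The study used a ratio of the knockout mean to the sum of both means, formed on groups of 2 mice per genotype, which is 0.5 where the genotypes are equal. Here it was formed on the means of 4 mice per genotype, since the labels do not give those groups, and its values are therefore not the same quantity. It was 0.621 for *Timp3* and lay between 0.485 (*Timp2*) and 0.548 (*Timp1*) for the other 9 genes. With medians the *Timp3* ratio was 0.662 and the *Timp1* ratio fell to the other side, at 0.486. Within libraries 1 and 2 and within libraries 3 and 4 the *Timp3* ratio was 0.682 and 0.555.

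The members spanned about 4 orders of magnitude in level. Per kb of the transcript with the longest coding sequence, the mean over 8 libraries was 130010 normalized counts for *Mmp9*, 9354 for *Mmp14*, 6984 for *Mmp12*, 3445 for *Mmp8* and 2722 for *Timp2*. There followed *Mmp13* at 598.3, *Mmp19* at 273.2, *Timp1* at 225.5, *Mmp2* at 198.3 and *Timp3* at 13.5. *Mmp9* exceeded *Mmp14* by 10.3-fold to 15.4-fold in the single libraries. From *Mmp9* down to *Mmp19*, each gene was above the next in 8 of 8 libraries, although by as little as 1.01-fold for *Mmp14* over *Mmp12* and 1.04-fold for *Mmp8* over *Timp2*. *Mmp19* was above *Timp1* in 7 of 8 libraries and *Timp1* above *Mmp2* in 4 of 8, so those 3 neighbours were not separated beyond their spread. With the length of all exons of a gene together in place of 1 transcript, the order of the means stayed as it was, but *Mmp12* was above *Mmp8* in 4 of 8 libraries.

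**Figure D3:**
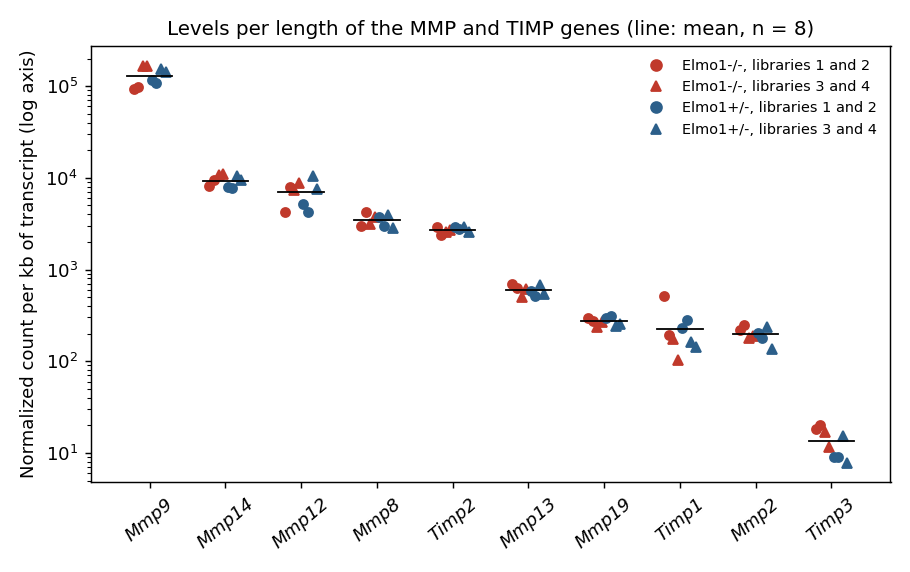
Normalized counts per kb of transcript (log axis) of the 10 genes in each of 8 libraries, ordered by their mean (black line), with *Elmo1*-/- in red, *Elmo1*+/- in blue, libraries 1 and 2 as circles and libraries 3 and 4 as triangles. *Mmp9* stands above all others at a mean of 130010, *Timp3* below all others at 13.5, and *Mmp19*, *Timp1* and *Mmp2* lie side by side.

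The 10 genes together took 1.05% to 1.93% of the normalized counts of a library. *Mmp9* made up 81.1% to 88.2% of the summed per kb level of the 7 MMP genes, and *Timp2* made up 84.3% to 96.0% of that of the 3 TIMP genes. The summed MMP level was 32.0, 46.0, 67.0 and 68.0 times the summed TIMP level in *Elmo1*-/- and 42.5, 40.2, 57.4 and 60.1 times in *Elmo1*+/-. The genotypes overlapped in this quotient, and libraries 3 and 4 of both were above libraries 1 and 2. With *Mmp9* left out, the quotient lay between 4.89 and 8.72. Of the pair that activates proMMP2, *Mmp14* was 2.72 to 4.11 times as high as *Timp2* per kb, while *Mmp2* lay at 0.0529 to 0.103 of *Timp2*.

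Some members differed more between libraries 1 and 2 and libraries 3 and 4 than between genotypes. This step is given as a description, with no test, since the sets were seen in the data. *Mmp9* was 293433 to 369642 in libraries 1 and 2 and 453298 to 529620 in libraries 3 and 4, a log2 step of 0.60 or 1.52-fold, with no overlap. *Timp1* went the other way, from 172.4 to 456.0 in the first set down to 90.2 to 154.4 in the second, a log2 step of -0.99. *Mmp19* was also lower in the second set, at 804.6 to 918.7 against 942.2 to 1052, a log2 step of -0.23. The other 7 members overlapped between sets, among them *Mmp12*, with a step of 0.69, and *Mmp14*, with 0.32. The count of members without overlap, 1 higher and 2 lower of 10, stood beside 18.1% of all tested genes that were higher and 15.8% that were lower without overlap, so that it was near the background. Without *Elmo1*-/- 2, the library of the first set whose *Mmp12* and *Mmp14* values reached into those of the second, 5 members did not overlap (3 higher and 2 lower), beside 26.9% and 25.5% of all tested genes, so that this count was near its background too. The step was present in both genotypes for *Mmp9*, at 0.80 in *Elmo1*-/- and 0.40 in *Elmo1*+/-, for *Mmp12*, at 0.47 and 0.91, and for *Timp1*, at -1.24 and -0.74. Together with these steps, the osteoclast marker sum was higher in libraries 3 and 4, as given above, and 7 of 12 macrophage markers were lower in libraries 3 and 4 without overlap, with sums of 293274 to 371984 and 230282 to 286539. Neutrophil marker sums were 13199 to 22791 and 10423 to 14002, and stromal sums 2274 to 2763 and 1647 to 2782. The osteoblast marker sum was 61.5 to 92.2 and then 94.3 to 97.1. Whether these marker sums reflect a difference in cell makeup was not tested, nor was its part in the steps of *Mmp9*, *Mmp19* and *Timp1*.

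**Figure D4:**
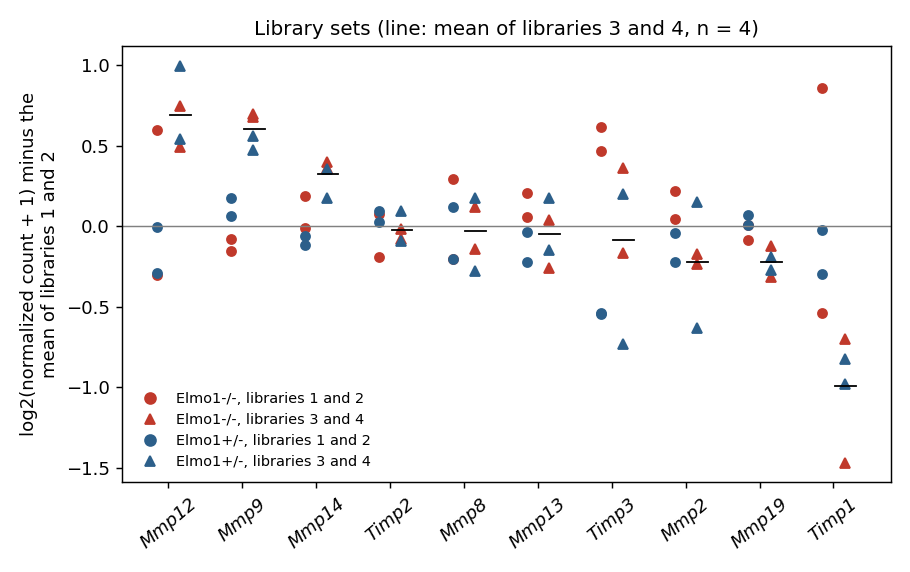
Value of each library on the log2(normalized count + 1) scale minus the mean of libraries 1 and 2 (vertical axis) for the 10 genes, ordered by the step between sets, with circles for libraries 1 and 2, triangles for libraries 3 and 4, red for *Elmo1*-/-, blue for *Elmo1*+/- and a black line at the mean of libraries 3 and 4. *Mmp9* triangles lie above all its circles, those of *Timp1* and *Mmp19* lie below, and *Timp2*, *Mmp8* and *Mmp13* stay close to 0.

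Of the 10 MMP genes grouped on chromosome 9 within 427.1 kb, 4 stood above the rest in each library and 6 were low or absent. In chromosome order the 10 are *Mmp13*, *Mmp12*, *Mmp1b*, *Mmp3*, *Mmp1a*, *Mmp10*, *Mmp8*, *Mmp27*, *Mmp20* and *Mmp7*. *Mmp12* and *Mmp8*, at means of 6984 and 3445 normalized counts per kb, were separated by *Mmp1b*, *Mmp3*, *Mmp1a* and *Mmp10*, of which the highest, *Mmp10*, had a mean of 22.3 per kb. *Mmp27*, the direct neighbour of *Mmp8*, had 286.7 to 486.5 per kb, while *Mmp20*, which encodes enamelysin of teeth, was at 0 in all 8 libraries. The expressed genes of the group did not step together between sets: *Mmp12* had a log2 step of 0.69, *Mmp8* of -0.03, *Mmp13* of -0.05 and *Mmp27* of -0.37.

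**Figure D5:**
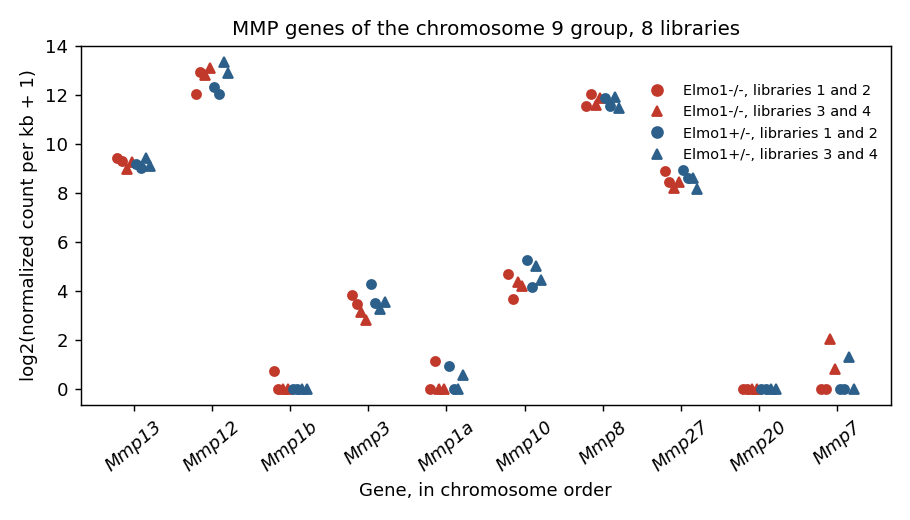
Level of the 10 MMP genes of the chromosome 9 group in chromosome order (vertical axis, log2 of the normalized count per kb + 1; red *Elmo1*-/-, blue *Elmo1*+/-, circles libraries 1 and 2, triangles libraries 3 and 4). *Mmp13*, *Mmp12*, *Mmp8* and *Mmp27* lie above the rest of the group in each of 8 libraries, with *Mmp27* the lowest of them, and *Mmp20* is at 0 throughout.

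Of the 17 further genes of the 2 families, 6 passed the filter on low values and 0 were called. All 6 had a log2 difference below 0 in limma under the 3 scalings and in edgeR and DESeq2, with a median of -0.21 against -0.0031 over all tested genes, but 3 of them turned above 0 in 1 or more of the other settings. *Mmp11* was at 0.07 within libraries 1 and 2, *Mmp23* at 0.10 within libraries 3 and 4, and *Mmp27* at no more than 0.02 with a mouse left out. The differences with the largest size were those of *Mmp10* (stromelysin 2), at -0.50 (SE 0.31) with 20.4 to 42.6 normalized counts in *Elmo1*-/- and 28.7 to 63.5 in *Elmo1*+/-, and *Mmp3* (stromelysin 1), at -0.34 (SE 0.31) with 10.9 to 23.7 and 15.2 to 33.1. Both overlapped between genotypes at these low counts. *Timp4*, *Mmp20* and *Mmp24* were at 0 in all 8 libraries.

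The related ADAM and ADAMTS proteases, some of which TIMP3 blocks, gave 0 calls among 14 tested of 19, with 10 above 0 and 4 below and a median of 0.06. *Adam8*, a membrane protease of myeloid cells, was the highest of them, at 11036 to 16552 normalized counts per kb and thus above *Mmp14* on average, followed by *Adam15* at 1499 to 2944. With the length of all exons, *Adam9* had a mean of 1701 per kb and was above *Adam15* at 1328. The largest differences were 0.30 (SE 0.25) for the aggrecanase gene *Adamts4* and 0.21 (SE 0.23) for *Adam19*, and neither passed the test. Among 24 genes that activate, inhibit, bind or clear MMPs, 19 were tested and 0 were called, with 9 above 0, 10 below and a median of -0.0096. The highest per kb were *Bsg*, which encodes the MMP inducer basigin, at 5068 to 6143, and *Lcn2*, whose product binds MMP9, at 3611 to 5599. With the length of all exons, *Lcn2* had a mean of 1520 per kb, below *Serpinb2* (3195), *Cd44* (1766) and *Plaur* (1735). The largest differences here, 0.18 (SE 0.67) for *Cldn1* and -0.17 (SE 0.48) for *Itgav*, did not pass the test, and *Itgav*, which encodes the integrin alpha v chain, stepped by 1.29 between the library sets without overlap.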

How the data were processed

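Gene counts divided by 1 DESeq2 size factor per library, a normalized signal, were deposited by the authors for 46517 genes (TruSeq mRNA libraries, 75 bp paired-end reads, NextSeq 500). The submitters' processing notes name FastQC, STAR, featureCounts and DESeq2, while no genome build was given in the sources used here. Another part of the deposited table holds the authors' own comparison (mean, fold change, error, statistic and p-values), which was not used. Division of each library by its smallest value returned whole reads (100% of values, tolerance 0.01). Symbols, positions and lengths came from GENCODE M21 (GRCm38), where 46005 identifiers matched and 512 did not.

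Genotypes were compared by limma 3.58.1 (R 4.3.3, trend, robust, no covariate) on log2(normalized count + 1), since the values are normalized. The 14139 genes that reached 10 in 4 or more libraries were tested, and p-values were adjusted by Benjamini-Hochberg (threshold 0.05). Alternatives were edgeR 4.0.16 (quasi-likelihood) and DESeq2 1.42.0 on recovered reads, other scalings, filters and pseudocounts, each mouse left out, the replicate number as a block and the library sets. Exact permutation tests were kept for genes whose genotypes do not overlap or whose unadjusted p is under 0.05. The limma fit alone was tried on simulated counts, with log2 changes of size 1 and 2 set in some genes. It recovered 91.8% and 99.0% of them, and 6.83% of its calls were false. The simulation had no difference between library sets, unlike these data, so it does not show how the fit performs on them. Replicate numbers were checked for pairing: deviations from the genotype means of same-numbered libraries correlated across genes at 0.703, 0.156, 0.598 and 0.520, all over 0.1, so by the rule used the numbers pair the libraries. Pairs with other numbers in the same set (libraries 1 and 2, or 3 and 4) correlated at 0.0259 to 0.691, so the shared set and the shared number cannot be told apart, and the labels give the numbers no meaning.

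The members and lists were chosen with earlier results of these data known. The named genes were all members, *Elmo1* and, from each of 3 further lists, every called gene, the 2 with the largest absolute log2 difference and the 2 with the highest level per kb. Marker lists were given as sums with their leading genes. The genes of the chromosome 9 group, the overlapping genes, *Mmp11*, *Mmp23* and the further single markers were named after their values were seen. The sign-flip test, the library-set counts and the second length measure were added after the data were seen. Promoters came from RefSeq.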

Additional observations from a re-analysis of the deposited data

Results flagged for a closer look

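In *Mmp9*, both knockouts lay below both controls in libraries 1 and 2 (293433 and 309327 against 369642 and 341775) and above both in libraries 3 and 4 (522533 and 529620 against 482633 and 453298). The genotype difference in libraries 3 and 4 minus that in libraries 1 and 2 was 0.41 on the log2 scale (95% interval 0.04 to 0.78, limma, adjusted p = 0.9999), so it did not pass the test across 14139 genes, of which 378 had an unadjusted p under 0.05 and 0 were called. Genotypes that were apart in opposite directions in the 2 sets occurred in 575 of those genes, or 4.07%.

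Within a genotype, a value far from the other 3 was found in 2 of 32 groups (16 genes, 2 genotypes), where chance gives about 1 in 20. In *Timp3*, the 71.6 normalized counts of *Elmo1*+/- 3 left a gap that took 0.843 of the range of the controls, and the genotype difference without that library was 0.92. In *Cldn1*, the 50.2 normalized counts of *Elmo1*+/- 3, against 6.4 to 10.9 in the other controls, gave 0.899.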

How the results depend on the processing

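No member was called under any of the 20 alternatives. Over all tested genes 1 was called, and 2 with DESeq2, within libraries 3 and 4 and without *Elmo1*+/- replicate 2 (leaving out each mouse gave 1 to 2). The replicate block changed no call, with 1 gene called and a *Timp3* log2 difference of 0.72 (limma, adjusted p = 0.9998). *Timp3*, *Timp2*, *Mmp14*, *Mmp10*, *Mmp3* and *Adam19* kept their sign in each of these alternatives in which they were tested. The other filters, the replicate block and the set term leave a log2 difference unchanged by design, so a kept sign there carries no information.

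Signs turned in these settings. Within libraries 3 and 4 alone the log2 difference was 0.17 for *Mmp9*, -0.15 for *Mmp12*, -0.12 for *Mmp13*, 0.012 for *Mmp19*, -0.18 for *Timp1* and 0.089 for *Itgav*, and within libraries 1 and 2 alone it was -0.084 for *Adamts4*. For *Mmp9*, edgeR gave 0.0051 and DESeq2 0.0054, and for *Cldn1*, DESeq2 gave -0.04. Leaving out each mouse in turn gave -0.0009 to 0.26 for *Mmp2*, -0.031 to 0.14 for *Mmp8*, -0.17 to 0.11 for *Mmp9*, -0.13 to 0.30 for *Mmp12*, -0.091 to 0.029 for *Mmp19*, -0.37 to 0.40 for *Timp1*, -0.15 to 0.78 for *Cldn1* and -0.44 to 0.25 for *Itgav*. The cause was not tested. The number of members without overlap between the library sets, an added result, was 3 to 5 when each mouse was left out, beside 35.6% to 52.4% of all tested genes (33.97% with all 8 libraries), and 3 under both other scalings. Low reads limit *Timp3* (39 to 96), *Mmp3* (10 to 36) and *Mmp10* (17 to 69).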
